A study of Mus musculus with 3 samples.

Results

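The genes described here mark the inhibitory interneurons of the cerebral cortex or encode the peptides these cells release: Sst, Npy, Vip, Cck, Tac1, Cort, Pvalb, Calb2, Reln and Lhx6. They were taken as every gene probe whose accession matched 1 of these 10 symbols in RefSeq (assembly GRCm38.p6). All 10 genes had a measured probe, 12 probes in all, out of 12721 named genes and 27531 probes tested. Cortex was dissected from 16-week-old mice that carried 1 Gtf2i allele written Δex2, Gtf2i(+/Δex2), and from wild-type mice, WT (+/+), both on a mixed background of 98.4% C57BL/6J and 1.6% 129Sv/CD1. Pools of total RNA from 3 to 5 mice of each genotype were compared on 3 two-colour Agilent arrays. By the labels, replicate 2 had the mutant RNA in Cy5 and the other arrays had it in Cy3. No label says whether each array had pools of its own, so a p-value here speaks of the spread between arrays, which may be technical. Their number limits the precision.

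Cortical interneurons use GABA and fall into classes that are told apart by the peptides and calcium-binding proteins they make. Cells with somatostatin or parvalbumin arise from the medial ganglionic eminence, where the LIM homeobox factor Lhx6 directs their fate, and cells with vasoactive intestinal peptide, and many of those with reelin, arise from the caudal eminence. Several of these genes are not confined to interneurons: Cck is also made by many pyramidal neurons, Tac1 by striatal neurons and Calb2 by midline thalamic neurons. RNA of whole tissue was measured, so fewer cells of a type and less RNA per cell cannot be told apart.

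The value used throughout is the log2 ratio, mutant to wild type, of the deposited channel signals. This direction is likely, from the sample titles, the deposited readme and control spots that turned over with the dyes. A change was called where the limma p was under 0.05 after Benjamini-Hochberg adjustment across the 27531 probes. Gtf2i itself, which encodes the transcription factor TFII-I, read -0.32 ± 0.05 at its brighter probe and -0.47 ± 0.04 at the other (SD, n = 3 arrays; limma adjusted p = 0.00506 and 0.00261). Neither probe checks the genotype unless it lies in the deleted part, which was not analysed here. Of 12 markers that define interneurons, such as Gad1, Slc32a1 and Dlx1, 10 were tested, all flagged reliable on the 3 arrays. Of these 10, 2 were lower (Htr3a and Satb1) and 0 higher, while Gad1, Slc32a1 and Dlx1 did not pass at their brightest probes. Beside this count and those that follow, 20.0% of all named genes, each read by its brightest probe, were lower and 16.0% higher. Among the tested markers of other cells, 4 of 8 astrocyte genes were lower and 2 higher, 6 of 8 microglia genes lower, 3 of 9 oligodendrocyte genes lower and 1 higher, 2 of 9 vessel genes lower and 2 higher, 2 of 4 blood genes lower, and 1 of 8 hippocampal genes lower and 2 higher; their part in the results was not tested. Across probes the log2 ratios of replicates 1 and 2 correlated at r = 0.822, those of 1 and 3 at 0.783 and those of 2 and 3 at 0.625, and probes are not independent. Ratios on replicate 3 stood further from the others for several of the interneuron genes, as described below, so values are given for each array.

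The promoters of Sst, Npy and Cck are printed first because these members passed the test, all lower in the mutant; that of Vip, which read higher on 2 arrays, stands beside them. Each is the 250 bases before the transcript start, 5′ to 3′, from RefSeq (GRCm38.p6): Sst at chr16:23890845-23891094 (minus strand), Npy at chr6:49822460-49822709 (plus strand), Cck at chr9:121495695-121495944 (minus strand) and Vip at chr10:5638968-5639217 (plus strand). Capitals mark matches to TGACGTCA, the cAMP response element, to its part TGACG, or to CACGTG, an E-box, on either strand.
Sst: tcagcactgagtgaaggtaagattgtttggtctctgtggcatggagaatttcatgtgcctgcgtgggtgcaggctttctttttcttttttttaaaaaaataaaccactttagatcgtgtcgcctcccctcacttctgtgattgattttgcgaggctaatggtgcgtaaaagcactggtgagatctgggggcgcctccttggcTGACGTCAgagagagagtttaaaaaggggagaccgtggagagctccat
Npy: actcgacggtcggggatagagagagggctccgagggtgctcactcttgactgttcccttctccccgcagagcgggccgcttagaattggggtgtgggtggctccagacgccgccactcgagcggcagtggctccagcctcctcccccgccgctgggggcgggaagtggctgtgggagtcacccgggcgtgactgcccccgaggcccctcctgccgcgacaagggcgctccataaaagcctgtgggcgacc
Cck: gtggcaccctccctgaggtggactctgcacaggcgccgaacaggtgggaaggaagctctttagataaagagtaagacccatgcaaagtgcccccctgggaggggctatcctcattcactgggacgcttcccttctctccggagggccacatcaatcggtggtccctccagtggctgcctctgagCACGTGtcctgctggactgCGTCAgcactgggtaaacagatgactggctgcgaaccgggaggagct
Vip: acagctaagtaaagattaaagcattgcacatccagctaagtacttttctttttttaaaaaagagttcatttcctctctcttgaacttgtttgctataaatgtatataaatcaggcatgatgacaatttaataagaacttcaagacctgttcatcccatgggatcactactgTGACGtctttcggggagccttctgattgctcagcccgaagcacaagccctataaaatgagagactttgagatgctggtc
The Sst promoter held TGACGTCA at bases 48 to 41 before the start, a motif found in 1.55% of the 32851 RefSeq promoter windows of the same length. Both copies of TGACG in that window lie inside it. The Npy window held none of the 3 motifs. The Cck window held CACGTG at bases 66 to 61, which 6.02% of windows hold, and TGACG on the other strand at bases 47 to 43, which 17.8% hold. TGACG alone stood in Vip at bases 79 to 75. Of the other members with a window, Tac1, Cort, Pvalb, Reln and Lhx6, Tac1 and Reln held CACGTG and Tac1 and Cort held TGACG. None of these motifs stood in all 3 genes that fell, and a match is a description of the letters only.

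In the mutant cortex 3 of the 10 members fell, Sst, Cck and Npy, and 0 rose. Over all named genes, each read by its brightest probe, 20.0% fell and 16.0% rose, 36.0% in all, so a share of 3 in 10 is near the background. Over tested probes 18.9% fell and 15.0% rose, 33.9% in all. The share moved with brightness: among the brightest 3180 named genes, where Sst and Cck lie, 25.3% fell and 25.7% rose, and among the dimmest 3181, 10.8% and 6.13%. The median log2 ratio of the members was -0.13, against -0.0066 over all named genes. By the rule in the deposited readme, a B statistic above 0, Sst alone passed, a rule that 9.66% of tested probes passed, 6.01% as lower. The plot of ratios by array shows Sst, Npy and Cck below 0 on every array and Pvalb above it; the other members crossed 0. So 4 of 10 members kept 1 sign on the 3 arrays, against 66.6% of named genes.

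**Figure D1:**
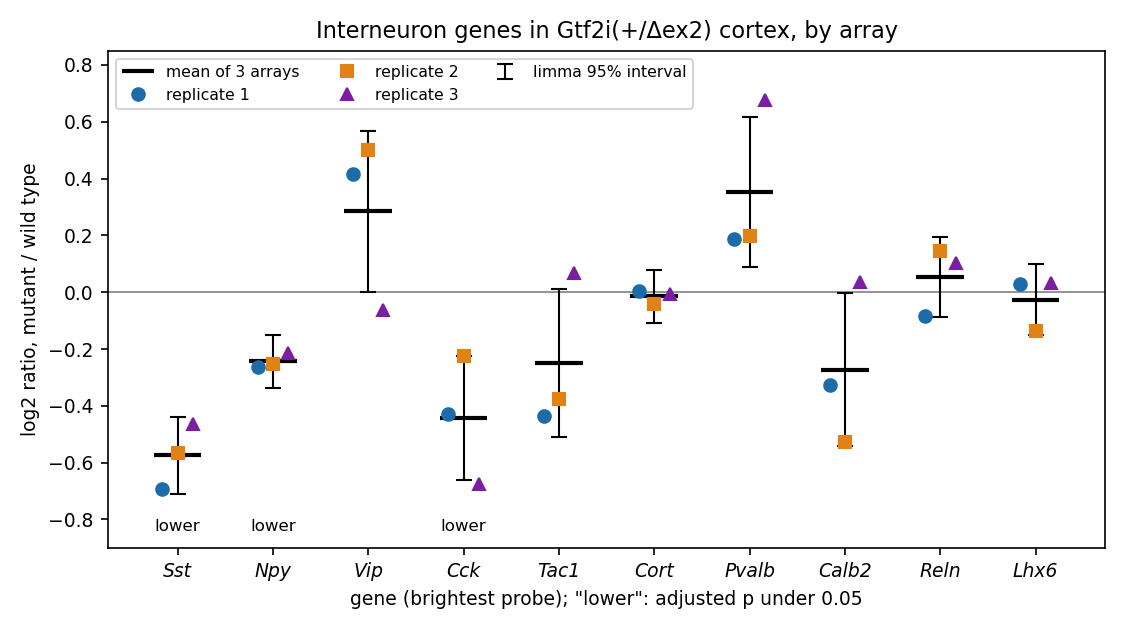
Log2 ratio of mutant over wild type for the brightest probe of each of the 10 genes, with a symbol for each array, a bar at the mean of 3 arrays and the limma 95% interval. Sst, Npy and Cck, marked "lower", lie below 0 on all 3 arrays, and replicate 3 lies apart from replicates 1 and 2 for Vip, Tac1, Pvalb and Calb2.

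Sst encodes somatostatin, a peptide that inhibits release from and firing of its target neurons and marks the interneurons that contact distal dendrites. Its signal in wild-type cortex was 12283, 12339 and 15036 on replicates 1, 2 and 3, and in mutant cortex 7606, 8337 and 10892. Every mutant value lay below every wild-type value. The log2 ratios of -0.69, -0.57 and -0.47 gave a mean of -0.57 ± 0.11 (SD, n = 3 arrays), or 67.2% of wild type (limma adjusted p = 0.0032, 95% interval -0.71 to -0.44). Only 1.61% of tested probes had a ratio as low or lower. The fall passed the threshold in the 10 alternatives that changed its ratio, with limma adjusted p from 4.86e-05 to 0.0268.

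Cort encodes cortistatin, a peptide closely related to somatostatin that binds the same receptors and is made by a subset of cortical interneurons. Its 6 signals lay between 559 and 602, the narrowest relative range among the members. The log2 ratios were 0.0036, -0.042 and -0.0052, with a mean of -0.015 ± 0.024 (SD, n = 3 arrays; limma adjusted p = 0.782). The 95% interval of -0.11 to 0.078 does not overlap that of Sst; the difference between these genes was not tested.

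Neuropeptide Y, encoded by Npy, is held by many somatostatin cells and by neurogliaform cells. Wild-type signals were 838, 866 and 1105 and mutant signals 697, 727 and 953 on replicates 1 to 3. Both genotypes were brighter on replicate 3, so the groups overlapped across arrays while the ratio held within each array, at -0.26, -0.25 and -0.21. The mean was -0.24 ± 0.03 (SD, n = 3 arrays), 84.5% of wild type (limma adjusted p = 0.00807, 95% interval -0.34 to -0.15). Without replicate 1 the call was lost (limma adjusted p = 0.0899 in a range of 0.000162 to 0.0899 over the alternatives), at a ratio of -0.23.

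Cck, which encodes cholecystokinin, an abundant cortical peptide of basket cells and pyramidal neurons, gave 18150.0, 18814 and 23648 in wild type and 13476, 16103 and 14826 in mutant. All mutant values lay below all wild-type values. Its log2 ratios were -0.43, -0.22 and -0.67, the lowest on replicate 3, with a mean of -0.44 ± 0.22 (SD, n = 3 arrays), 73.6% of wild type (limma adjusted p = 0.0164, 95% interval -0.66 to -0.22). Without replicate 1 the ratio was -0.45 and the call was lost (limma adjusted p = 0.0747 in a range of 0.000246 to 0.0747 over the alternatives). Of 12 pyramidal neuron markers tested, 6 were lower and 1 higher (20.0% and 16.0% of named genes), with a median log2 ratio of -0.19. Their mean ratios by array were -0.16, -0.21 and -0.14, and 7 of 12 had their highest ratio on replicate 3. Others had their lowest there, as Cck did, such as Fezf2 (-0.36, -0.25 and -0.73) and Neurod6 (0.04, 0.06 and -0.59). The summed signal of the 12 markers on replicates 1, 2 and 3 was 71253, 77528 and 96984 in mutant and 68201, 107938 and 93466 in wild type, with 0 markers at 0. Nrgn and Camk2a made up most of each sum. Nrgn alone gave 44967, 45919 and 57213 in mutant and 35797, 66241 and 43648 in wild type. The part of these markers in the fall of Cck was not tested.

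Vip encodes vasoactive intestinal peptide, which marks interneurons that mainly inhibit other interneurons. Wild-type signals were 667, 728 and 766, and mutant signals 889, 1030.3 and 734. The mutant was therefore brighter on replicates 1 and 2, with log2 ratios of 0.41 and 0.50, and not on replicate 3, at -0.06. The mean of 0.28 ± 0.30 (SD, n = 3 arrays) did not pass (limma adjusted p = 0.108, 95% interval 0.00047 to 0.57). Without replicate 3 it read 0.46 (limma adjusted p = 0.000392). Without replicate 1 or 2 it read 0.22 and 0.18 (limma adjusted p = 0.356 and 0.346).

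Tac1, the precursor gene of substance P and neurokinin A, gave 1266, 1341 and 1040.0 in wild type and 936, 1033 and 1090.1 in mutant. Its log2 ratios were -0.44 and -0.38 on replicates 1 and 2 and 0.07 on replicate 3. The mean was -0.25 ± 0.28 (SD, n = 3 arrays; limma adjusted p = 0.122, 95% interval -0.51 to 0.01), and without replicate 3 it was -0.41 (limma adjusted p = 0.000639). Without replicate 1 or 2 the mean was -0.15 and -0.18 (limma adjusted p = 0.438 and 0.35). Markers of the striatum, where Tac1 is abundant, were lower for 3 of 12 tested and higher for 1 (20.0% and 16.0% of named genes). Of the 12, 11 had their highest ratio on replicate 3. The mean ratio of these markers on the log2 scale was -0.14 on replicate 1, -0.28 on replicate 2 and 0.22 on replicate 3. Their summed signal on replicates 1, 2 and 3 was 64312, 61082 and 87617 in mutant and 54482, 73984 and 59441 in wild type. Penk alone made up most of it, with 48354, 44940 and 68211 in mutant and 36349, 55851 and 41424 in wild type. In all, 0 markers were at 0, and the part of these markers in the values of Tac1 was not tested.

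Neither gene of a calcium-binding protein passed the test, Pvalb reading higher and Calb2 lower on average. Pvalb encodes parvalbumin, the marker of fast-spiking basket and chandelier cells, and gave 677, 732 and 683 in wild type against 771, 839 and 1091 in mutant. All mutant values lay above all wild-type values, with log2 ratios of 0.19, 0.20 and 0.68. The mean of 0.35 ± 0.28 (SD, n = 3 arrays), 128% of wild type, stood just outside the threshold (limma adjusted p = 0.0518, 95% interval 0.089 to 0.62). It passed in 3 of the 10 alternatives that changed its ratio. These were arrays centred on their median and array weights (limma adjusted p = 0.0496 and 0.0133), and the fit without replicate 3. Without replicate 3 it read 0.19 (limma adjusted p = 0.0212). Without replicate 1 or 2 it read 0.44 and 0.43 and did not pass (limma adjusted p = 0.0867 and 0.0809). Averaging genes over their probes left its ratio as it was (limma adjusted p = 0.0493).

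Calb2 encodes calretinin, found in many interneurons with vasoactive intestinal peptide, and was the member with several probes. Its brightest, A_51_P311436, gave wild-type signals of 314, 341 and 175 and mutant signals of 250.1, 237 and 179. The log2 ratios of -0.33, -0.53 and 0.04 averaged -0.27 ± 0.29 (SD, n = 3 arrays; limma adjusted p = 0.106, 95% interval -0.54 to -0.0031), or -0.43 without replicate 3 (limma adjusted p = 0.00105). Without replicate 1 or 2 the mean was -0.25 and -0.15 (limma adjusted p = 0.307 and 0.329). Probe A_52_P571780 read -0.22, -0.46 and 0.02 and probe A_52_P556433 -0.12, -0.39 and 0.31. All 3 probes were thus lower in the mutant on replicates 1 and 2 and higher on replicate 3. Probe A_52_P556433 was flagged reliable on only 2 arrays, at 2.07 times the negative controls, and averaged -0.067 (limma adjusted p = 0.712). Wild-type signal on replicate 3 stood at -0.90, -0.62 and -0.66 log2 units from the mean of replicates 1 and 2 at the 3 probes, and mutant signal at -0.44, -0.26 and -0.098. Of 7 thalamic markers tested, 1 was higher and 0 lower in the mutant (16.0% and 20.0% of named genes). Their mean log2 ratios by array were 0.04, 0.12 and 0.93. Single markers differed, from Prkcd at -0.26, -0.19 and 1.13 to Tcf7l2, the marker called higher, at 0.46, 0.60 and 1.76. Another probe of Tcf7l2 read -0.091, 0.029 and 0.023 and did not pass. All 7 had their lowest wild-type signal on replicate 3, where the sum was 4056 against 8152 and 8613, and 6 of 7 had their highest ratio there. The mutant sum was 8827, 10019.8 and 7999, 0 markers were at 0, and their part in the values of Calb2 was not tested.

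Neither Reln nor Lhx6 passed the test. Reln encodes reelin, the secreted glycoprotein of layer 1 cells that guides neuronal positioning and in the adult acts at synapses, had signals of 919, 899.7 and 940.2 in wild type and 866, 994 and 1009 in mutant. Its log2 ratios were -0.085, 0.14 and 0.10, with a mean of 0.053 ± 0.12 (SD, n = 3 arrays; limma adjusted p = 0.495, 95% interval -0.088 to 0.19). Lhx6 was dim, at 170 to 189 in all 6 signals and 2.28 times the negative controls. Its ratios of 0.028, -0.14 and 0.031 averaged -0.026 ± 0.096 (limma adjusted p = 0.71, 95% interval -0.15 to 0.098; SD, n = 3 arrays).

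**Figure D2:**
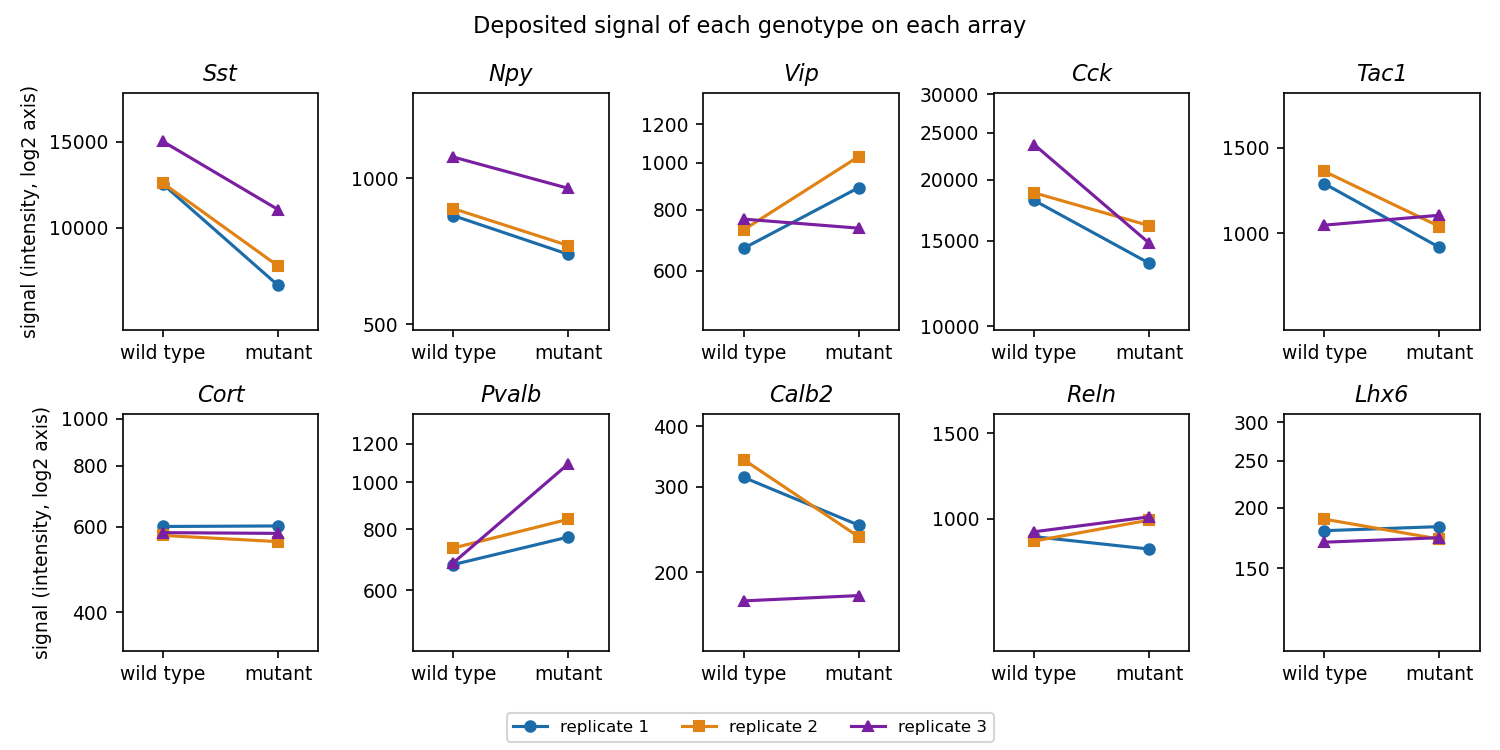
Deposited signal (intensity, log2 axis, a scale for each gene) of wild-type and mutant cortex, with a line for each array; a panel shows the brightest probe of 1 gene. For Sst, Npy and Cck all 3 lines fall; for Vip, Tac1 and Calb2 the line of replicate 3 runs against the other two, and for Cort all lines are flat.

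How far replicate 3 stood from the others was described by ratio and by genotype, the second from signals set across arrays that were normalized separately. The mean ratio of replicates 1 and 2 was subtracted from that of replicate 3. This shift was -0.52 for Vip, 0.48 for Pvalb, 0.47 for Tac1, 0.46 for Calb2 and -0.35 for Cck. These 5 of 10 members exceeded 0.246 in size, the 90th percentile over tested probes, which 10.6% of named genes exceeded. The members were chosen with earlier results of these data known, so the count of 5 is a description only. Over all tested probes the median size was 0.081 for this shift and 0.080 for the difference between replicates 1 and 2. The first is taken against a mean of 2 arrays and the second between single arrays, so like sizes do not mean like spread. Between replicates 1 and 2, which had opposite dyes, 1 member, Reln, exceeded the 90th percentile of 0.209. For Vip and Pvalb it was mainly the mutant signal that stood apart on replicate 3 (by -0.38 and 0.44, wild type by 0.14 and -0.045), and for Tac1 and Cck the wild-type signal (by -0.33 and 0.36, mutant by 0.15 and 0.0093). In Sst and Npy both genotypes were brighter on replicate 3, by 0.29 and 0.38 in wild type and by 0.45 and 0.42 in mutant.

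**Figure D3:**
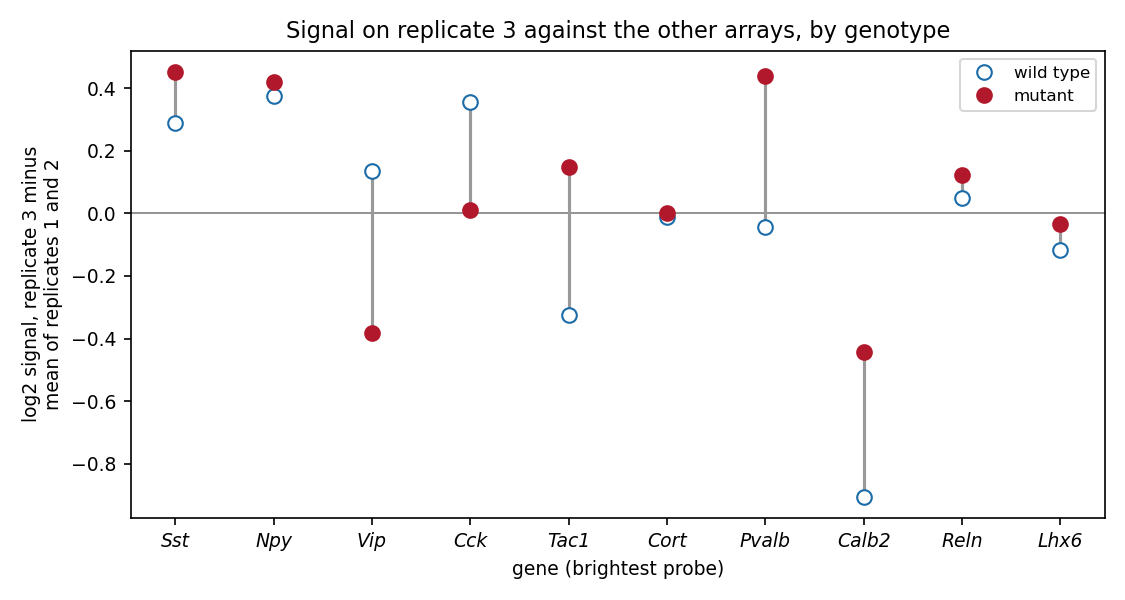
Log2 signal on replicate 3 minus the mean of replicates 1 and 2, for wild type (open) and mutant (filled), brightest probe of each gene. Open and filled points lie close together for Npy, Cort, Reln and Lhx6 and far apart for Vip, Pvalb, Tac1, Calb2 and Cck; Calb2 is lower on replicate 3 in both genotypes.

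Of 14 tested receptor genes, 3 fell and 1 rose, against 20.0% and 16.0% of named genes, with a median log2 ratio of -0.071. Cckbr, the main brain receptor of cholecystokinin, read -0.21 ± 0.06, and Cckar, the receptor known from the gut, 0.21 ± 0.04 (SD, n = 3 arrays; limma adjusted p = 0.0177 and 0.0127). The Cckar probe was dim, at a mean signal of 171, the 15.8th percentile of tested probes. Adcyap1r1, which binds the related peptide PACAP, read -0.19, and Tacr1, the receptor of substance P, -0.17. The other probes of Cckbr (0.08) and Tacr1 (-0.02) did not pass. The somatostatin receptor genes Sstr1 (0.032), Sstr2 (-0.0027) and Sstr3 (0.040) did not pass, nor did Sstr4 at its brightest probe (-0.095), while its other probe fell by 0.26 on the log2 scale (limma adjusted p = 0.00669). Nor did the neuropeptide Y receptor genes Npy1r (-0.012), Npy2r (-0.12) and Npy5r (-0.089) pass.

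Genes that cut, amidate and pack peptides went both ways. Of 13 tested, 5 fell and 2 rose, against the same 20.0% and 16.0%, with a median of -0.0013. Scg3, a granin-family protein of secretory granules, read -0.47 ± 0.03, and Pcsk1n, an inhibitor of prohormone convertase 1, -0.38 ± 0.09 (SD, n = 3 arrays; limma adjusted p = 0.00259 and 0.00515). Pam, which amidates peptide ends, read -0.39, Cpe, which trims basic residues, -0.37 and Cadps, which primes granules for release, -0.21. The convertase genes Pcsk1 (0.21) and Pcsk2 (0.18) rose. Other probes of Pcsk1n, Pam and Cpe also fell, while those of Cadps (0.12) and Pcsk2 (0.05) did not pass.

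Among other genes of cortical interneurons, 9 of 31 tested fell and 2 rose, with a median of -0.064. Over all named genes 36.0% were called, 20.0% as lower, so this share is near the background. Htr3a, the serotonin-gated channel of interneurons from the caudal eminence, had ratios of -1.25, -1.06 and -0.91, 47.6% of wild type (limma adjusted p = 0.00214). Satb1, a chromatin factor needed by somatostatin cells, read -0.44, Lamp5, a marker of neurogliaform cells that is also found in pyramidal neurons, -0.43, Nxph1 -0.31, Tac2, the neurokinin B precursor gene, -0.24 and Crhbp, a marker of somatostatin cells, -0.22. The transcription factor gene Nr2f2 (0.39) rose, although another probe of Nr2f2 read 0.017 and other probes of Nxph1 read -0.18 and 0.08. The GABA-synthesis genes Gad1 (-0.20) and Gad2 (-0.30) did not pass at their brightest probes, and the vesicular GABA transporter gene Slc32a1 read 0.21 without passing. The other Gad1 probe fell by 0.37 on the log2 scale (limma adjusted p = 0.0243).

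In the pathway downstream of reelin, 1 of 9 tested genes fell and 0 rose, against 20.0% and 16.0% of named genes, with a median of -0.049. It was Cdk5 (-0.28), a neuronal kinase. The receptor gene Vldlr read 0.31 (limma adjusted p = 0.0598), and Dab1, the adaptor of reelin signalling, -0.049 at its brightest probe and -0.25 and -0.27 at the other probes, which fell. Over these 4 lists 23 genes passed, and 7 of them still passed without replicate 1, among them Htr3a, Satb1, Nr2f2, Scg3, Pcsk1n and Pam.

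**Figure D4:**
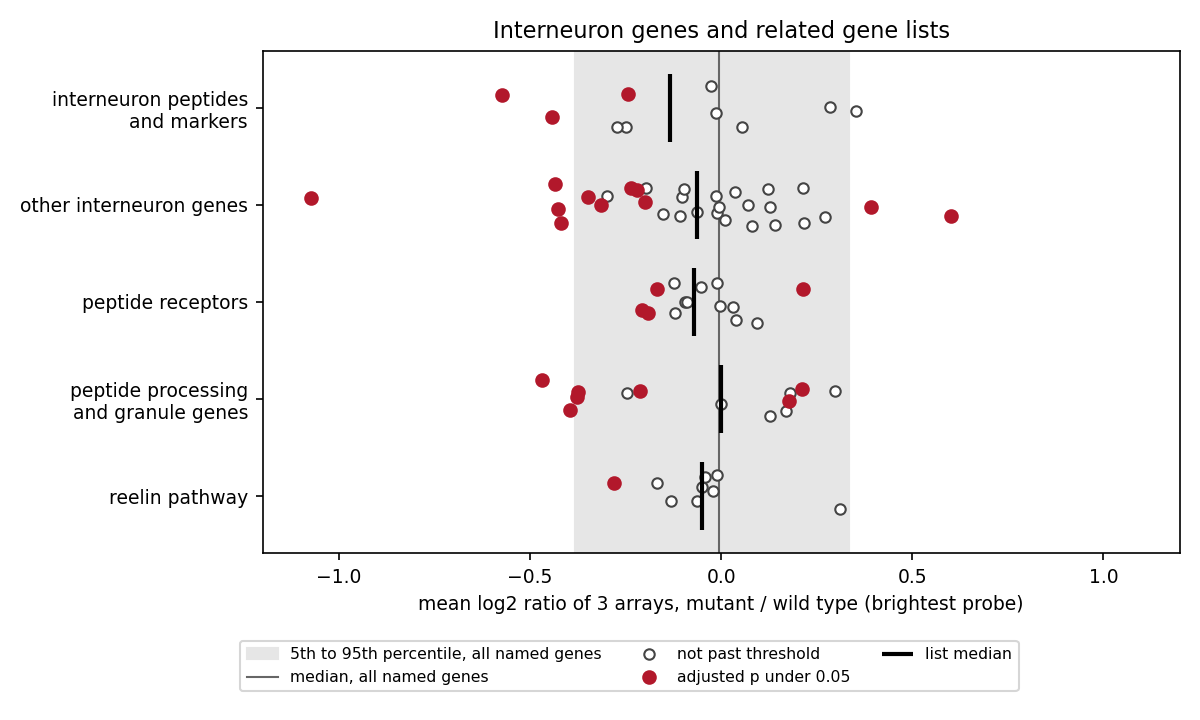
Mean log2 ratio of 3 arrays for the 10 members and for 4 related gene lists, a point for each gene at its brightest probe, filled where the limma adjusted p was under 0.05; the black bar is the list median and the grey band the 5th to 95th percentile of all named genes. The medians lie between -0.13 and -0.0013, and Htr3a, at -1.07, is the lowest point.

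The genes whose 3 array ratios lay nearest to those of a called member were found among 12711 other named genes by Euclidean distance over the 3 arrays. Nearest to Cck were Lamp5 (distance 0.050) and Fezf2 (0.091), which share its low value on replicate 3. Fezf2 belongs to the pyramidal neuron markers counted above. Nearest to Sst were Strbp (0.044) and Mul1 (0.055), and nearest to Npy were Galr3 (0.0091) and Hp1bp3 (0.015). With 3 arrays such distances describe likeness of size and order only.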

How the data were processed

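The 3 two-colour arrays carried 60-mer probes. The authors deposited linear intensities per spot and channel, background-subtracted, normalized and corrected for the dye swap per the deposited readme, which names GenePix but no normalization method. Their log2 ratio and a signed fold score, also deposited, were made from the same signals; the score equalled the series' value table at all 44290 spots. Medians of gene spots were 204.1 to 206.1 in each channel.

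Numbers were read with decimal commas. Spots of 1 probe were averaged, and probes flagged reliable (foreground over 2 times background) on at least 2 arrays were tested: log2 ratios against 0 with limma 3.58.1 (lmFit, eBayes; R 4.3.3), two-sided, adjusted by Benjamini-Hochberg. Loess, planned for values not yet normalized, became an alternative. RefSeq accessions named 52.1% of 41174 gene probes. A gene was read by its brightest tested probe, whatever its ratio, and all probes of members are given. Named genes were the members, Gtf2i, up to 6 called genes per direction and list by smallest p, and the 2 nearest patterns; the receptors, Gad1, Gad2, Slc32a1, Vldlr and Dab1 that did not pass were added after their values were seen, and 1 gene that the rule names is not reported here. The members and lists were chosen with earlier results of these data known. The fit was tested on simulated data. Figures used matplotlib 3.10.9.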

Additional observations from a re-analysis of the deposited data

How the results depend on the processing

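Of the 10 alternatives that changed their ratios, Sst kept its call in 10 and Npy and Cck in 9, the exception being without replicate 1; filters and probe choice leave the ratio of a gene with 1 probe as it is. Leaving out each array in turn gave 2407 to 9886 called probes, 1 to 7 called members and 8 to 30 called genes of the related lists. The same gave log2 ratios of -0.63 to -0.52 for Sst, -0.26 to -0.23 for Npy, -0.55 to -0.33 for Cck, 0.18 to 0.46 for Vip, -0.41 to -0.15 for Tac1, 0.19 to 0.44 for Pvalb, -0.43 to -0.15 for Calb2 and -0.054 to 0.029 for Lhx6. The 7 members called without replicate 3 were Sst, Npy, Cck, Tac1 and Calb2 as lower and Vip and Pvalb as higher. Fits without an array leave 2 arrays.

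Array weights, which gave replicate 1 a weight of 5.84 against 0.373 and 0.46, called 18614 probes, 7 members and 46 list genes. They put Vip at 0.39, Tac1 at -0.40, Pvalb at 0.22 and Calb2 at -0.31, all called, and turned the uncalled signs of Cort (0.00042), Reln (-0.059) and Lhx6 (0.019). Replicates 1 and 2 averaged as 1 gave 5122 probes and 13 list genes, and probe A_52_P556433 of Calb2 read 0.026 there and 0.093 without replicate 2. Pvalb passed with arrays centred (0.36) and with probes averaged per gene (0.35). A B statistic above 0, chosen after the data were seen, gave 2659 probes, 1 member and 6 list genes. Lhx6 and Calb2 lie near background, and with the negative control level subtracted Calb2 read -0.39, still not called. The causes were not tested. The ratio within an array already pairs the genotypes, so no further replicate block could be fitted. No dye effect passed in limma (0 of 27531 probes), while 2409 probes, 8.75%, had an unadjusted p under 0.05 and 64 a B statistic above 0.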
